A study of Mus musculus with 6 samples.

Results

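Genes for glucose uptake, glycolysis and lactate transport were followed in whole sciatic nerve of mice that lack Srebf-1c and of their wild-type littermates, all 10 months old. The 31 genes were listed by pathway, with earlier results of these data known, though no measured value enters the listing rule. A gene was counted where a probe set carried its symbol and no other. Of the 31 genes, 27 were measured this way among 22180 genes in all. No probe set was named for Gpi1, Pfkfb1, Aldoa or Eno1 alone, so these steps are represented by their other isoforms or not at all. The series holds 3 arrays of wild type and 3 of Srebf-1c KO, with 1 whole nerve sample hybridised to each array. The genotype field gives only wild type or Srebf-1c KO, with no further detail of the allele, and a source field that reads wild type for all 6 samples was set aside in favour of titles and genotype. Whether the samples of a group are from separate animals is not in the labels, and a p-value here weighs a difference against the spread of 3 samples, some of which may be technical. Srebf1, whose product drives fatty acid synthesis genes, had a log2 intensity of 9.53, 9.55 and 9.70 in wild type against 8.11, 8.06 and 8.04 in KO, a log2 fold change of -1.52 ± 0.11 (SE, limma adjusted p = 0.0497).

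Glycolysis turns glucose into pyruvate. Glucose enters through transporters of the Slc2a family, hexokinases (Hk genes) trap it as glucose 6-phosphate, and phosphofructokinase (Pfkl, Pfkm, Pfkp) makes the committed step, which fructose 2,6-bisphosphate made by the Pfkfb enzymes activates. Lactate dehydrogenases (Ldha, Ldhb) interconvert pyruvate and lactate, and the monocarboxylate transporters of the Slc16a family carry lactate across membranes. In peripheral nerve, glucose crosses the perineurium and endothelium largely through the transporter encoded by Slc2a1, and Schwann cells are known to pass lactate or pyruvate to axons. Several steps have isoforms that are typical of skeletal muscle, and these were kept apart: Slc2a4 (also typical of fat), Pfkm, Pgam2, Eno3 and Fbp2. Slc2a3 and Eno2 are typical of neurons, Aldoc of brain and Hk3 of myeloid cells, and the other 18 measured genes are widely expressed.

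None of the 27 genes differed between the genotypes past an adjusted p of 0.05 (smallest limma adjusted p = 0.850). Among all genes 0.00451% passed, which was Srebf1 alone, and a gene passed in 6 of 17 alternative settings. The looser criterion of the study (at least 1.5-fold at an unadjusted p under 0.05) was met by 0 of the 27, against 1.19% of all genes. At an unadjusted p under 0.05 there were 2 of 27 (7.41%), against 5.83% of all genes, which is near the background. These were the phosphofructokinase gene Pfkl, lower in KO (1 of 27, against 3.49% of all genes lower at that p), and the phosphoglycerate mutase gene Pgam1, higher in KO (1 of 27, against 2.34% higher). The same genes were the 2 whose 3 KO values did not overlap the 3 wild-type values, which held for 12.3% of all genes (4.08% higher and 8.21% lower). The median log2 fold change, KO minus wild type, was 0.040 over the 27 genes and -0.032 over all genes.

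**Figure D1:**
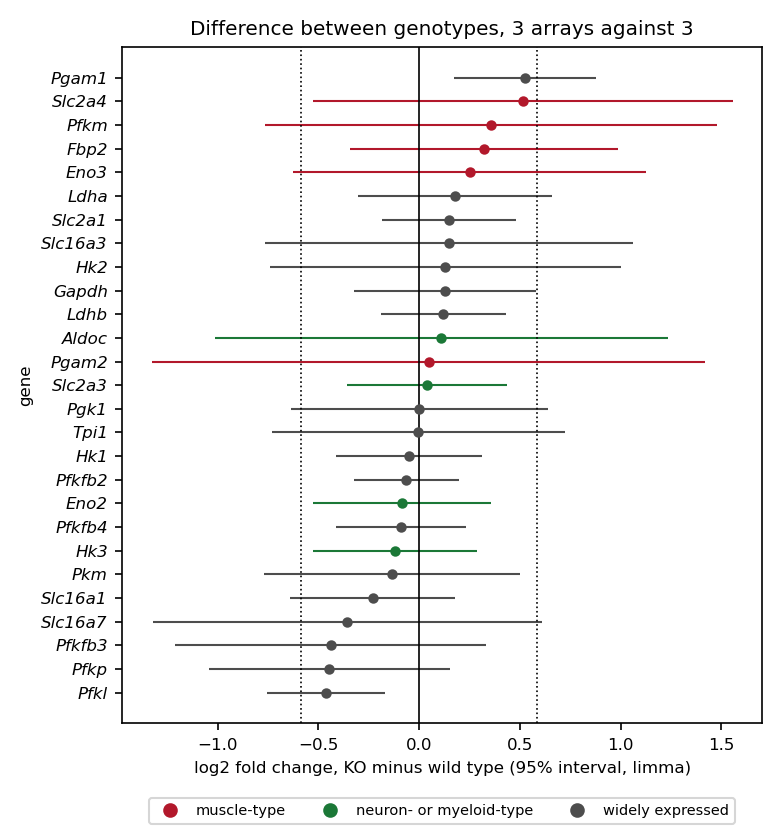
Log2 fold change, KO minus wild type, of each of the 27 genes with its 95% interval from limma, coloured by class; dotted lines mark 1.5-fold in either direction. The intervals of Pgam1 and Pfkl lie on 1 side of 0, and those of the muscle-type genes Pgam2, Pfkm and Slc2a4 are among the widest.

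The muscle-type isoforms varied far more between arrays than between genotypes. The lowest and highest arrays were nearly the same for these 5 genes, with wild-type replicate 2 lowest for 5 of 5 and KO replicate 1 highest for 4 of 5. Wild-type replicate 2 was the lowest array for 18.1% of all genes and KO replicate 1 the highest for 12.8%. The spread from the lowest to the highest array ran from 1.29 (Fbp2) to 2.26 (Pgam2) on the log2 scale, against a median of 0.54 over all genes. In 250 bases before the annotated start of Pgam2 and Fbp2, shown as the members of this class with the E-box letters CAGCTG upstream of the start, capitals mark those letters, the related E-box CACGTG, and the hypoxia core, which is spelled ACGTG. The sequences are those of RefSeq on GRCm38.p6, on the minus strand at chr11:5803797-5804046 for Pgam2 and at chr13:62858401-62858650 for Fbp2.
Pgam2: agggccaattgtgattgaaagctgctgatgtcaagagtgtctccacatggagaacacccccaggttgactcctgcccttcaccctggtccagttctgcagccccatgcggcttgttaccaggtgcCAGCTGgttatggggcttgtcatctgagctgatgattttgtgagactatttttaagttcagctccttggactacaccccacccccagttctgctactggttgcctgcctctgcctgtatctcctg
Fbp2: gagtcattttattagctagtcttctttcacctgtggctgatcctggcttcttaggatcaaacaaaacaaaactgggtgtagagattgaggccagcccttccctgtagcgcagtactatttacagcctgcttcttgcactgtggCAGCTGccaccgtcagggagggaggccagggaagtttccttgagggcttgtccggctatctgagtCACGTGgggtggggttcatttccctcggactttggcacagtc

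Pgam2, the muscle form of phosphoglycerate mutase, stood at 10.34, 8.08 and 9.45 in wild type against 10.06, 8.68 and 9.27 in KO. Means were 9.29 ± 1.14 and 9.34 ± 0.69 (SD, n = 3 each), and all 3 KO values lay within the wild-type range. Slc2a4, the insulin-responsive glucose transporter GLUT4, stood at 10.56, 8.90 and 10.12 in wild type against 10.96, 9.97 and 10.20 in KO. Its log2 fold change of 0.52 ± 0.44 (SE) was the largest of the class, with a 95% interval of -0.52 to 1.56, and came mostly from the low value of wild-type replicate 2. Pfkm, the muscle phosphofructokinase, stood at 11.80, 10.01 and 11.11 in wild type against 11.97, 10.80 and 11.21 in KO, a log2 fold change of 0.36 ± 0.48 (SE). Groups overlapped for both genes.

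Eno3, the muscle enolase, was in the brightest 1% of genes, at the 99.8th percentile of mean level. It stood at 13.35, 11.94 and 13.06 in wild type against 13.44, 12.70 and 12.96 in KO, a log2 fold change of 0.25 ± 0.37 (SE). Fbp2, the muscle fructose bisphosphatase, which runs the phosphofructokinase step backwards, was dimmer and less variable. Its levels were 7.20, 6.66 and 7.20 in wild type against 7.95, 7.09 and 6.99 in KO, a log2 fold change of 0.32 ± 0.28 (SE), with KO replicate 1 apart from the rest. All 5 genes had a higher mean in KO (43.1% of all genes did), with a median log2 fold change of 0.32, and the smallest limma adjusted p was 0.903. Without KO replicate 1 that median was 0.034, and without wild-type replicate 2 it was -0.13, with Slc2a4 at 0.037, Pfkm at -0.13, Eno3 at -0.17, Pgam2 at -0.56 and Fbp2 at 0.14. The sign of the median, and of the differences of Pfkm, Eno3 and Pgam2, turned without wild-type replicate 2. Fbp2 was smallest without KO replicate 1, at 0.020.

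Skeletal muscle markers shared the low array of these isoforms but not always the high one: 26 of 30 were lowest in wild-type replicate 2, while 15 were highest in wild-type replicate 1 and 10 in KO replicate 1. The slow-fibre genes Myh7, Tnnt1, Tnni1 and Tnnc1 were highest in KO replicate 3, and of these Myh7 (6.84) and Tnnc1 (8.09) were lowest in KO replicate 1. Myh1 and Mybpc1 were lowest in wild-type replicate 3. A muscle score was taken over these 30 skeletal muscle markers, none of them in the glycolysis set. It was the mean of the deviation of each gene's log2 intensity from its 6-array mean. It read 0.85, -0.99 and -0.27 in wild type against 0.46, -0.41 and 0.37 in KO. Summed intensity of the 30 markers ran from 65899 to 186680 in wild type and from 98223 to 174388 in KO, and all 30 lay above the median level of all genes. Of these markers 23 had a higher mean in KO (76.7%, against 43.1% of all genes). Fewer muscle cells and less RNA per cell cannot be told apart in whole tissue. Each gene was then fitted with genotype and muscle score together, and the slope, in log2 intensity per unit of score, was tested. No gene of 22150 passed an adjusted p of 0.05 (0.0% of genes, smallest adjusted p = 0.160), while 10.1% did at an unadjusted p under 0.05.

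Of the 27 genes, 9 had a slope past an unadjusted p of 0.05, and all 9 slopes were positive (33.3%, against 6.52% of all genes with a positive slope at that p). The muscle-type genes held 4 of the 9. Pgam2 had a slope of 1.21 ± 0.19 (SE, limma adjusted p = 0.212). Pfkm followed at 0.96 ± 0.18, Slc2a4 at 0.84 ± 0.20 and Eno3 at 0.70 ± 0.17, and Fbp2 had a slope of 0.32 ± 0.22 that did not pass (unadjusted p = 0.184). The other 5 were widely expressed: hexokinase 2 (Hk2) at 0.71 ± 0.17, the lactate exporter MCT4 (Slc16a3) at 0.70 ± 0.20, triose phosphate isomerase (Tpi1) at 0.54 ± 0.17, pyruvate kinase (Pkm) at 0.50 ± 0.13 and phosphoglycerate kinase (Pgk1) at 0.48 ± 0.14. Hk2 and Slc16a3 are also known for high levels in muscle. Without wild-type replicate 2, the array with the lowest score, 2 positive slopes were left at that p, those of Pgam2 (1.00 ± 0.26) and Pfkm (0.79 ± 0.25). Without wild-type replicate 1, the array with the highest score, 6 positive slopes were left. In each of these settings 1 negative slope also passed.

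**Figure D2:**
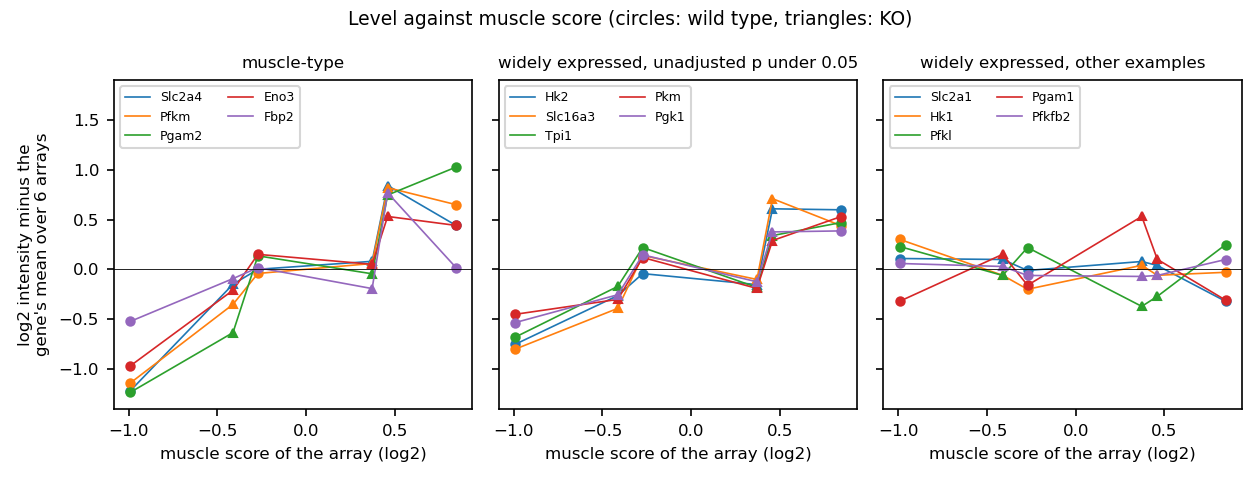
Level of each gene on each array, as log2 intensity minus its mean over the 6 arrays, against the muscle score of that array; circles are wild type, triangles KO, and lines join the points of a gene in order of score. Muscle-type genes other than Fbp2 climb with the score (slopes of 0.70 to 1.21), the 5 widely expressed genes in the middle panel climb less steeply or alike (0.48 to 0.71), and the 5 at the right, picked after their values were seen, have slopes between -0.20 and 0.031.

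With the muscle score in the model, the genotype differences of the muscle-type genes lay on both sides of 0. The log2 fold change was then 0.28 for Slc2a4, 0.23 for Fbp2, 0.088 for Pfkm, 0.055 for Eno3 and -0.29 for Pgam2. Isoforms of the same step were also set against each other within each array, as the change in their log2 difference. The difference between Pfkm and Pfkl was 0.82 higher in KO than in wild type (exact permutation p = 0.4, two-sided, n = 3 and 3), and that between Pgam2 and Pgam1 was 0.48 lower (exact permutation p = 0.7). For Slc2a4 and Slc2a1 the change was 0.37, for Slc16a3 and Slc16a1 it was 0.38 and for Hk2 and Hk1 it was 0.18, with an exact permutation p of 0.6 to 0.8. With 3 arrays against 3 the smallest possible p is 0.1, so none of these 8 comparisons could pass 0.05. The remaining pairs were Slc2a3 with Slc2a1, Pfkp with Pfkl and Ldhb with Ldha, at -0.11, 0.016 and -0.057.

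Among uptake and trapping genes, Slc2a1, which encodes GLUT1, was bright and steady, at the 99.1st percentile of level with a spread of 0.43 over the arrays. Its log2 fold change was 0.15 ± 0.14 (SE), with a 95% interval of -0.18 to 0.48. The slope on the muscle score was negative, at -0.20 ± 0.09 (SE, limma unadjusted p = 0.0723), and did not pass 0.05. A second, much dimmer probe set of Slc2a1 gave -0.27 ± 0.21. Slc2a3, the high-affinity transporter GLUT3 of neurons, stood at 0.040 ± 0.17. Hexokinase 1 (Hk1), the form of most tissues including nerve, stood at -0.049 ± 0.15, with a 95% interval of -0.41 to 0.31. Hk2 stood at 0.13 ± 0.37 and Hk3 at -0.12 ± 0.17, with Hk3 at the 36.9th percentile of level.

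At the phosphofructokinase step, all 3 KO values of Pfkl lay below all 3 wild-type values. It read 8.96, 8.94 and 8.93 in wild type against 8.44, 8.65 and 8.34 in KO, with means of 8.94 ± 0.02 and 8.48 ± 0.16 (SD, n = 3 each). The wild-type values were unusually close together, and KO replicate 2 lay nearest to them. The log2 fold change was -0.46 ± 0.12 (SE), or 0.726 of the wild-type level, with an unadjusted p = 0.00702 and a limma adjusted p = 0.850. Its slopes on the muscle score (-0.055) and on the adipocyte score (0.063) were small, and leaving out any 1 array kept the log2 fold change between -0.55 and -0.39. Pfkl is known as the liver-type phosphofructokinase, present in many tissues. Pfkp, the platelet type, stood at 9.37, 9.10 and 9.37 in wild type against 8.35, 9.38 and 8.77 in KO, a log2 fold change of -0.45 ± 0.25 (SE, unadjusted p = 0.123). Its KO values spanned 1.03, and without KO replicate 2, the highest array, it stood at -0.72 and met the study's criterion. In that setting 552 of all genes met the criterion, against 265 with all 6 arrays.

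Of the bifunctional enzymes that set fructose 2,6-bisphosphate, Pfkfb3, the form with the strongest kinase activity, varied most. It stood at 9.96, 8.82 and 9.97 in wild type against 9.14, 9.44 and 8.85 in KO, a log2 fold change of -0.44 ± 0.33 (SE, unadjusted p = 0.221). Wild-type replicates 1 and 3 lay above all KO arrays and wild-type replicate 2 below all of them. Without wild-type replicate 2 the value was -0.82 and met the study's criterion, as did 362 of all genes, against 265 with all 6 arrays. Without wild-type replicate 3 or 1 it was smaller (the range over the 6 arrays left out was -0.82 to -0.25). Pfkfb2 and Pfkfb4 stood at -0.063 ± 0.11 and -0.091 ± 0.14. Pfkfb2 had the smallest spread of the 27 genes, 0.17 over the 6 arrays.

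**Figure D3:**
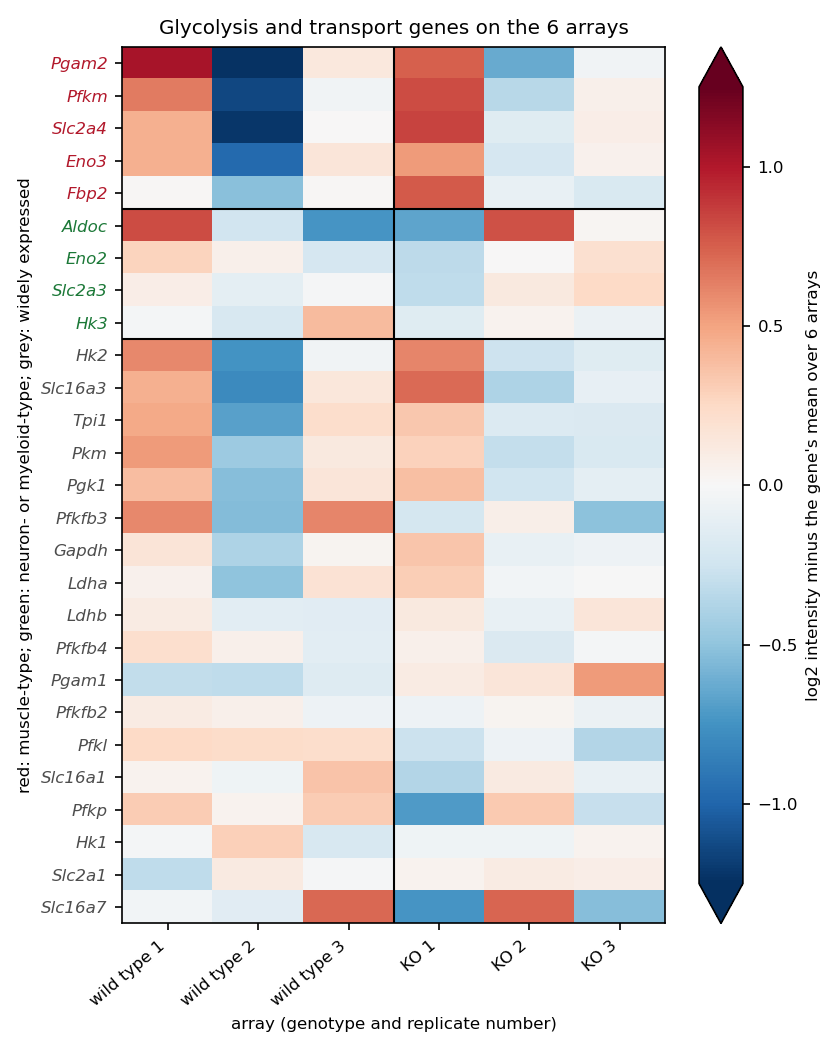
Log2 intensity of the 27 genes on each array, minus the gene's mean over the 6 arrays, with genes in rows by class and in order of their slope on the muscle score within a class. The muscle-type genes other than Fbp2, and Hk2, Slc16a3, Tpi1, Pkm and Pgk1, share a low wild-type replicate 2 and high wild-type replicate 1 and KO replicate 1. The rows of Pfkl and Pgam1 change colour between the genotypes.

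In the later steps of the pathway, all 3 KO values of Pgam1, the widely expressed phosphoglycerate mutase, lay above the wild-type values. Its brightest probe set read 8.97, 8.96 and 9.12 in wild type against 9.38, 9.43 and 9.81 in KO, with means of 9.02 ± 0.09 and 9.54 ± 0.24 (SD, n = 3 each). The log2 fold change was 0.53 ± 0.15 (SE), 1.44-fold, with an unadjusted p = 0.00956 and a limma adjusted p = 0.850. The other probe set of Pgam1 gave 0.052 ± 0.12 (unadjusted p = 0.683), with overlapping groups, so the difference was seen by 1 of its 2 probe sets. With the mean of probe sets Pgam1 stood at 0.29. Without KO replicate 1 it stood at 0.61 and met the study's criterion, as did 290 of all genes, against 265 with all arrays. Pgam1 has pseudogenes in the mouse, so what each probe set measures is uncertain. The 250 bases before the starts of Pgam1 and Pfkl are given as those of the pair whose groups did not overlap, on the plus strand at chr19:41911621-41911870 for Pgam1 and on the minus strand at chr10:78009808-78010057 for Pfkl, from RefSeq on GRCm38.p6 with the same letters in capitals.
Pgam1: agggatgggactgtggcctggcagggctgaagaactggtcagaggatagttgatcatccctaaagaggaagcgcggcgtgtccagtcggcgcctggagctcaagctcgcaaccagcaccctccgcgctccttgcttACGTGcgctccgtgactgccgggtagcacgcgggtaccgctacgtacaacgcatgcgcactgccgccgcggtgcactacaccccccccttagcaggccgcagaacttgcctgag
Pfkl: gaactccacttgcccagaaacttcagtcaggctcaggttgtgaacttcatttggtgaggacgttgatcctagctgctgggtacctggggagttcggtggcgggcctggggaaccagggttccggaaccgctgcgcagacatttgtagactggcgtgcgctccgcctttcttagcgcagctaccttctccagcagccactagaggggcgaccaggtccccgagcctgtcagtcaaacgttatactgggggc

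Short motifs were searched on both strands of the window from 250 bases before to 50 after each annotated start, in 34 windows of 24 of the 27 genes and in 32851 windows of all genes. The letters ACGTG, the core bound by hypoxia-inducible factors, were in 55.9% of the 34 windows and in 19.6% of all. Their longer form CACGTG, which contains ACGTG on both strands, was in 17.6% and 7.15%. CAGCTG, an E-box of the kind muscle regulators bind, was in 14.7% of the 34 windows and in 16.3% of all, so it was no more frequent here. Counted by gene, it was in a window of 3 of 4 muscle-type genes (Pgam2, Eno3 and Fbp2). It was also in a window of 2 of 17 widely expressed ones (Pkm and Pfkfb2). The muscle-type gene Slc2a4 had no window matched. No share by gene was taken over all genes, so these counts by gene have no background. The sterol regulatory element, in the 1 spelling searched, was found in the window of Aldoc alone (0.234% of all windows). For MEF2, the letters searched were CTA and TAG with any 4 bases between. They were in the window of Ldhb alone (3.69% of all windows). Sites that end in TAA were not searched, so whether muscle-type genes such as Pgam2 hold a MEF2 site was not tested. Some genes have several windows, of which a pair overlaps for Pfkm and for Pfkfb2, and these matches describe letters, not binding.

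Gapdh, which makes the first high-energy intermediate and is widely used as a reference gene, had 3 probe sets that disagreed. The brightest read 13.47, 12.93 and 13.35 in wild type against 13.66, 13.22 and 13.25 in KO, a log2 fold change of 0.13 ± 0.19 (SE). The middle one gave 0.26 ± 0.19. The dimmest read 6.90, 6.24 and 7.22 in wild type against 8.87, 7.36 and 8.39 in KO, a log2 fold change of 1.42 ± 0.41 (SE) with an unadjusted p = 0.00996, and its groups did not overlap. It was picked after its values were seen, and Gapdh has many processed pseudogenes, so its target is uncertain. With the mean of the 3 probe sets Gapdh stood at 0.60 and met the study's criterion, as did 260 of all genes.

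**Figure D4:**
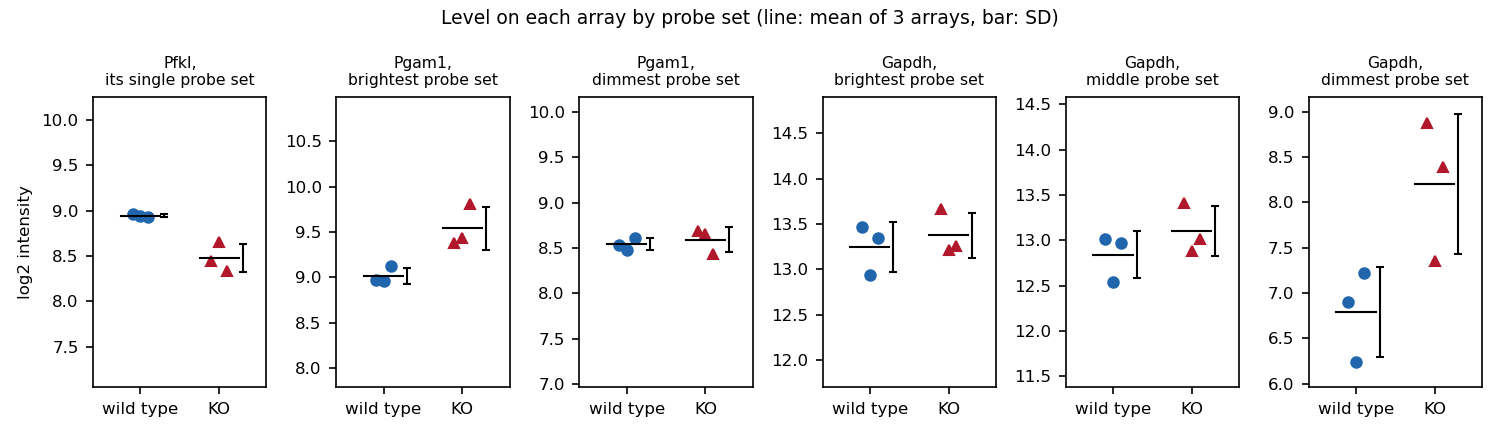
Log2 intensity on each array for the probe set of Pfkl, the 2 of Pgam1 and the 3 of Gapdh; circles are wild type, triangles KO, lines the mean of 3 arrays and bars the SD, and every panel spans the same range of log2 units. The groups are apart for Pfkl, for the brightest probe set of Pgam1 and for the dimmest of Gapdh, and overlap in the other panels.

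Other enzymes of the later steps differed little. Pgk1 stood at 0.00037 ± 0.27 (SE) and Tpi1 at -0.0047 ± 0.31, with 95% intervals of -0.64 to 0.64 and -0.73 to 0.72, so differences within those limits could not be told from none. Pkm stood at -0.13 ± 0.27. The neuronal enolase Eno2 stood at -0.085 ± 0.19. Aldoc, the brain-type aldolase, had the widest spread outside the muscle-type genes, 1.56, with wild-type replicate 1 at 9.81 and KO replicate 2 at 9.79 highest and wild-type replicate 3 at 8.25 and KO replicate 1 at 8.33 lowest. The score over 10 neuronal markers had the same 2 arrays lowest (-0.52 in wild-type replicate 3 and -0.32 in KO replicate 1), with wild-type replicate 1 (0.60) and KO replicate 2 (0.24) highest. Summed intensity of these markers ran from 3052 to 8230 in wild type and from 3371 to 6066 in KO, and their part in the levels of Aldoc was not tested. The log2 fold change of Aldoc was 0.11 ± 0.48 (SE).

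For lactate, Ldhb, the form that favours use of lactate, was bright and steady, with a log2 fold change of 0.12 ± 0.13 (SE) and a spread of 0.29, and Ldha stood at 0.18 ± 0.20. Slc16a1, which encodes MCT1, the main lactate transporter of Schwann cells and perineurium, stood at -0.23 ± 0.17 (unadjusted p = 0.225), with a 95% interval of -0.64 to 0.18. Slc16a3 stood at 0.15 ± 0.39. Slc16a7, which encodes the high-affinity transporter MCT2, stood at 8.33, 8.22 and 9.08 in wild type against 7.63, 9.09 and 7.83 in KO, a log2 fold change of -0.36 ± 0.41 (SE). Wild-type replicate 3 and KO replicate 2 were high and the groups overlapped. Without KO replicate 2 it stood at -0.81 and met the study's criterion.

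The arrays high for Slc16a7 were those rich in fat cell transcripts. The adipocyte score, over 16 markers, read -0.76, -0.31 and 1.36 in wild type against -0.66, 1.27 and -0.89 in KO, and summed intensity of these markers ran from 16268 to 54242 in wild type and from 15011 to 52625 in KO. The slope of Slc16a7 on this score, fitted with genotype, was 0.53 ± 0.10 (SE, unadjusted p = 0.00106, limma adjusted p = 0.0992). Of all genes 0.546% passed an adjusted p of 0.05 for this slope and 8.25% an unadjusted one. Slc16a7 was the 1 gene of the 27 past the unadjusted threshold, with a positive slope (6.07% of all genes), and none passed the adjusted one. Slc2a4, which fat cells also express, had a slope of -0.12 ± 0.24. Scores of some other cell types were highest on the same 2 arrays, wild-type replicate 3 and KO replicate 2. They were 0.50 and 0.53 for macrophage markers, 0.35 and 0.17 for endothelial markers, and 0.33 and 0.41 for perineurial and fibroblast markers. In the last list Dpt stood at 12.85 and 12.78 on these arrays and at 9.58 to 9.94 on the others. Col1a1, Col1a2, Itgb4, Dcn and Lum of that list were highest on other arrays. The part of these cell types in the level of Slc16a7 was not tested.

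Neighbouring pathways were read from lists of the same kind. None of 8 pentose phosphate, 23 glycogen, 8 glycerol 3-phosphate and gluconeogenesis and 29 other isoform or transporter genes passed an adjusted p of 0.05 in the genotype comparison. The pentose phosphate pathway branches off at glucose 6-phosphate and yields NADPH. A lower mean in KO was seen for 8 of its 8 genes, and for 12624 of all 22180 genes. The median log2 fold change of the 8 was -0.21, and H6pd and Tktl1 differed least, at -0.010 and -0.014. Slopes on the adipocyte score were positive at an unadjusted p under 0.05 for 3 of the 8 (H6pd, Pgd and Rpe), against 6.07% of all genes. The part of fat cells in these levels was not tested. The groups did not overlap for 4 of the 8, all lower, against 8.21% of all genes that did so. Taldo1, transaldolase of its non-oxidative arm, stood at 9.21, 9.19 and 9.25 in wild type against 8.86, 8.92 and 8.79 in KO, a log2 fold change of -0.36 ± 0.11 (SE, unadjusted p = 0.0123, limma adjusted p = 0.850). The dim transketolase-like gene Tktl2 stood at -0.39 ± 0.15, Rpia at -0.23 ± 0.13 and Pgls, the lactonase of the oxidative arm, at -0.19 ± 0.11. G6pdx and Tkt had no probe set of their own.

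Glycogen genes had a median log2 fold change of 0.0058, and 0 of 23 reached an unadjusted p under 0.05 between genotypes (5.83% of all genes did). Their slopes on the muscle score were positive at that p for 11 of 23 (6.52% of all genes), among them the muscle glycogen synthase Gys1 (0.93), phosphorylase kinase subunit Phkg1 (1.01) and muscle phosphorylase Pygm (0.63). Of the genes with the smallest p, Pgm2 stood at -0.32 ± 0.15 (SE), Ppp1r3b, which targets phosphatase to glycogen, at -0.28 ± 0.14, Ugp2 at 0.34 ± 0.31 and Ppp1r3d at -0.17 ± 0.18. Among the other isoforms and transporters, Fbp1, the liver fructose bisphosphatase, stood at 6.57, 6.94 and 6.89 in wild type against 7.13, 7.15 and 7.14 in KO, a log2 fold change of 0.34 ± 0.13 (SE, unadjusted p = 0.0380). It was dim, as were the fructose transporter Slc2a5 at -0.42 ± 0.22, Slc16a11 at -0.31 ± 0.18 and Gapdhs at -0.21 ± 0.15. In the glycerol 3-phosphate and gluconeogenesis list, G6pc3 stood at 0.37 ± 0.18, Gpd1l at -0.20 ± 0.14, Gpd2 at -0.27 ± 0.21 and Pck1, which fat cells express, at -0.66 ± 0.88.

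Facts of the arrays as a whole bear on all of these values. Median intensity ran from 115.5 to 122.6, and Pearson r between 2 arrays was 0.969 to 0.986 over probe sets, with mixed-genotype pairs reaching 0.983. Schwann cell markers were bright, at a median percentile of 98.1 over 12 genes, and muscle markers were at 98.7. The 3 arrays of a genotype set how precisely any difference can be known.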

How the data were processed

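Arrays measured RNA of whole sciatic nerve, with 3 samples of each genotype, grouped by title. Intensities deposited by the authors are Robust Multichip Average values on a linear scale, from 3.67 to 23738; per the series' design text they were background-corrected, normalized and summarized with TAC and Partek, and the linear scale is inferred from the values. Build mm8 is named in the submitters' processing notes; tool versions were not given in the sources used here.

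Log2 was taken with no pseudocount. Of 41077 probe sets, 23521 carried 1 symbol, 1814 several and 15742 none; 1 probe set per gene, the brightest on average, gave 22180 genes with no filter. Genes were fitted with limma 3.58.1 in R 4.3.3 (two-sided, Benjamini-Hochberg over all genes), checked on simulated data; Python 3.11.15 and scipy 1.17.1 gave exact permutation tests. Values with ± are standard errors unless marked SD. Promoter windows, for 24 of 27 genes by symbol, are RefSeq's.

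Members and lists were chosen with earlier results of these data known. Levels on every array are given for muscle-type genes, those at an unadjusted p under 0.05, and the 4 largest differences each way; other lists name the 4 smallest p. Alternatives were other scalings, filters, probe set rules, variance models, covariates, the block and leaving out each array.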

Additional observations from a re-analysis of the deposited data

How the results depend on the processing

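An adjusted p of 0.05 was passed by 1 gene, Srebf1, and by 0 genes with quantile normalization, arrays at one median, unmoderated ANOVA, the replicate block, or the muscle or adipocyte score as covariate (0 to 1 with an array left out). None of the 27 genes passed in any of these. Genes meeting the study's criterion numbered 265, or 150 and 89 without the dimmest 25% and 50%, 138 with ANOVA and 231 to 552 with an array left out. Of the 27 genes 0 met it, 1 (Gapdh) with the mean of probe sets, and 0 to 2 with an array left out. At an unadjusted p under 0.05 there were 2 of the 27, and 2 to 4 with an array left out. Pfkl kept its direction in all 17 alternatives and so did Pgam1. Some small differences changed sign: Pgam2 to -0.29 and Hk2 to -0.069, Slc16a3 to -0.048 and Pgk1 to -0.13 with the muscle score, Pgam2 to -0.0071 and Pgk1 to -0.014 with the adipocyte score, Eno2 to 0.0029 and Pgk1 to -0.0090 with array weights, Hk1 to 0.016, Pfkfb2 to 0.018 and Pgk1 to -0.040 with quantile normalization, Tpi1 to 0.013 with arrays at one median, and Slc2a1 to -0.061 and the pair Slc2a3 minus Slc2a1 to 0.10 with the mean of probe sets. With an array left out, log2 fold changes that took both signs ran for Pfkm -0.13 to 0.77, Pgam2 -0.56 to 0.57, Eno3 -0.17 to 0.53, Slc2a3 -0.073 to 0.20, Aldoc -0.26 to 0.55, Eno2 -0.21 to 0.060, Hk3 -0.25 to 0.050, Hk1 -0.16 to 0.091, Hk2 -0.21 to 0.46, Tpi1 -0.35 to 0.23, Gapdh -0.029 to 0.24, Pgk1 -0.27 to 0.20, Pkm -0.39 to 0.095, Ldha -0.028 to 0.31, Slc16a3 -0.22 to 0.41, and for the pairs Pgam2 minus Pgam1 -1.05 to 0.070, Slc2a4 minus Slc2a1 -0.20 to 0.84, Hk2 minus Hk1 -0.30 to 0.54, Slc16a3 minus Slc16a1 -0.066 to 0.73, Slc2a3 minus Slc2a1 -0.25 to 0.066, Pfkp minus Pfkl -0.17 to 0.24, Ldhb minus Ldha -0.23 to 0.11. The cause of these shifts was not tested. Deviations of same-numbered arrays had correlations of 0.12, 0.012 and -0.23, inside the range of the other pairs (-0.26 to 0.28). With 3 values and no reference for matched samples, they cannot show whether samples of the same number were matched. The replicate block moved the count of genes called from 1 to 0. With 3 arrays a group, only large differences can be told from the spread.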
